A study of Mus musculus with 20 samples.

Results

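Amph, Syn2, Snap25, Stx1a, Vamp2, Dnm1, Syt13 and Bsn encode proteins of the synaptic vesicle cycle, and the CpG methylation of these 8 mouse genes was described here in microglia-enriched brain homogenate. Every CpG inside the gene or within 1 kb of it counted as a member, which gave 916 CpGs, 877 of them listed at both ages. The whole series listed 1151247 CpGs at 13 months and 1234494 at 3 months. Methylation had been measured by reduced representation bisulfite sequencing (RRBS), which reads CpG-rich fragments, and is given as the percent of reads methylated at each CpG. HEM mice overexpress full-length human wild-type α-synuclein, and the transgene sits on the X chromosome under the murine Thy-1 promoter, a promoter used mainly to drive expression in neurons. WT mice were the controls, and both genotypes had the B6D2F1/J background, a label that 1 HEM library of 13 months lacks. The 13-month groups held 8 libraries from HEM and 4 from WT, and each group of 3 months held 4. The series' own description counts 3 WT mice at 3 months, against these 4 libraries.

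Neurotransmitter is stored in synaptic vesicles, which are held in a reserve pool, docked at the active zone, fused with the membrane after calcium entry and retrieved by endocytosis. Synapsins such as Syn2 tether vesicles in the reserve pool, and bassoon (Bsn) is a large scaffold protein of the active zone. Syntaxin 1A (Stx1a) and Snap25 on the plasma membrane and synaptobrevin 2 (Vamp2) on the vesicle form the SNARE complex that drives fusion. Syt13 is an atypical member of the synaptotagmins, the family that holds the calcium sensors of release. Amphiphysin (Amph) binds curved membrane and recruits dynamin, and dynamin 1 (Dnm1) is the GTPase that cuts the endocytic vesicle free. α-Synuclein itself is a presynaptic protein that binds vesicles. These are mainly neuronal genes, so a homogenate enriched for microglia mixes their state in several cell types, and a different share of cells cannot be told apart from a different methylation level per cell.

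The mean over all CpGs listed at both ages lay between 29.2% and 31.9% in the 20 libraries. The files give percentages without read counts, so the depth behind each value is unknown. Of the marker genes checked, the region means of the microglial list (8 of 13 genes with a region) ran from 46.7% to 61.3% over the libraries, and those of the neuronal list (11 of 11) from 18.3% to 21.9%. Gene expression was not analysed here, and these levels do not measure how many microglia a library holds.

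The windows from 250 bases before to 50 after the RefSeq start (build GRCm38.p6) were found for 5 of the 8 members, Amph, Syn2 (2 windows), Stx1a, Dnm1 and Bsn. The windows of Amph, Stx1a and Bsn hold measured CpGs and are shown because these stretches were almost free of methylation in every group. Letters in capitals are the CG pairs with a measured position, and the sequences run 5′ to 3′ on the strand of the gene. The Amph window lies at chr13:18948101-18948400 on the plus strand, the Stx1a window at chr5:135023232-135023531 on the plus strand, and the Bsn window at chr9:108190334-108190633 on the minus strand.
Amph: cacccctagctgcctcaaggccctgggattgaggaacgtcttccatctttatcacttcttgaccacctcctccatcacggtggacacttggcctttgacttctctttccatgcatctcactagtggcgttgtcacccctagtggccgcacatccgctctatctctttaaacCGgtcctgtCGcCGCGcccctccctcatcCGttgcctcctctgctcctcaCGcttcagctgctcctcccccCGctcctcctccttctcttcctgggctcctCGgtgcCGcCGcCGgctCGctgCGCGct
Stx1a: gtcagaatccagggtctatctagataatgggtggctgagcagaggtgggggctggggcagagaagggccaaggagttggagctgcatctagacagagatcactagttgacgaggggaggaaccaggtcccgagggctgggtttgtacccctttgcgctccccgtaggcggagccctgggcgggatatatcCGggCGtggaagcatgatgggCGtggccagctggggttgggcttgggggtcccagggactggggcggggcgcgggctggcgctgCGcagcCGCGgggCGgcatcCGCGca
Bsn: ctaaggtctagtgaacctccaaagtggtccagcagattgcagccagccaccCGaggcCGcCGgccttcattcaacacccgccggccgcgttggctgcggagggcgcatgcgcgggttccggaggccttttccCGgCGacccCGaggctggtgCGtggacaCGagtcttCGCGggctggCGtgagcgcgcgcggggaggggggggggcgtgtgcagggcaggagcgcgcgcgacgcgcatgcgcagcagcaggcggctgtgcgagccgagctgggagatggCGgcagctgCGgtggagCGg

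In the Amph window 14 of 19 CG pairs were measured, and the mean level was 0.334% ± 0.172 (SD, n = 8) in HEM mice of 13 months, against 0.557% ± 0.345 (SD, n = 4) in their controls. At 3 months the Amph window stood at 0.350% ± 0.348 (SD, n = 4) in HEM, against 0.180% ± 0.192 (SD, n = 4) for WT. The Stx1a window, with 9 of 19 CG pairs measured, ranged from 0% to 0.454% over the 20 libraries. The Bsn window, with 14 of 38 measured, ranged from 0.0339% to 0.804%. The highest mean of any position in these 3 windows was 1.98%. Low methylation at a start is common in these data, since 91.64% of the 10625 RefSeq windows with at least 3 measured positions lay under 5%. The letters CCGG, the recognition site of MspI, the enzyme usual in RRBS, occur 2 times in the Amph window, 1 time in Stx1a and 4 times in Bsn. They occur 0 times in the 2 Syn2 windows and in the Dnm1 window, which also hold 0 measured positions, and 52.78% of all 32851 windows hold them at least 1 time. The letters GGGCGG, searched on both strands, were found 3 times in the Stx1a window and 0 times in those of Amph and Bsn. They were found 3 times in the Syn2 window at chr6:115134652-115134951, 0 times in the other Syn2 window and 1 time in the Dnm1 window. Of all windows, 35.66% hold them.

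Within 1 kb of the annotated gene start, 361 of the 370 member CpGs had a mean under 10%. For Snap25, Vamp2 and Syt13, which have no window and so no strand here, the lower end of the gene was taken as the start. Over all 916 member CpGs, 453 (49.5%) were under 10%, 362 lay between 10% and 90% and 101 were above 90%. The share under 10% was 58.3% over the 1132579 CpGs of the series at both ages. All 77 measured CpGs of Vamp2 lie within 1 kb of its start and all were under 10%, so the data say nothing of the rest of that gene. Of the 26 Snap25 CpGs, 24 lie near the start. The other 2 had means of 82.9%, 35642 bp from the start at chr2:136749081, and 0.952%, 69681 bp from the start and past the gene end. Amph went from 1.48% ± 0.313 near the start to 88.4% ± 1.59 over its other CpGs in HEM mice of 13 months (SD, n = 8). In the same libraries the CpGs away from the start averaged 65.9% in Syn2, 67.9% in Stx1a, 59.6% in Syt13 and 73.1% in Bsn. Dnm1 was lower there, at 31.9% ± 1.04 (SD, n = 8), and 114 of its 179 CpGs were under 10% and 40 of these lie near the start. At the start of Bsn, 55 of 62 CpGs were under 10%.

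**Figure D1:**
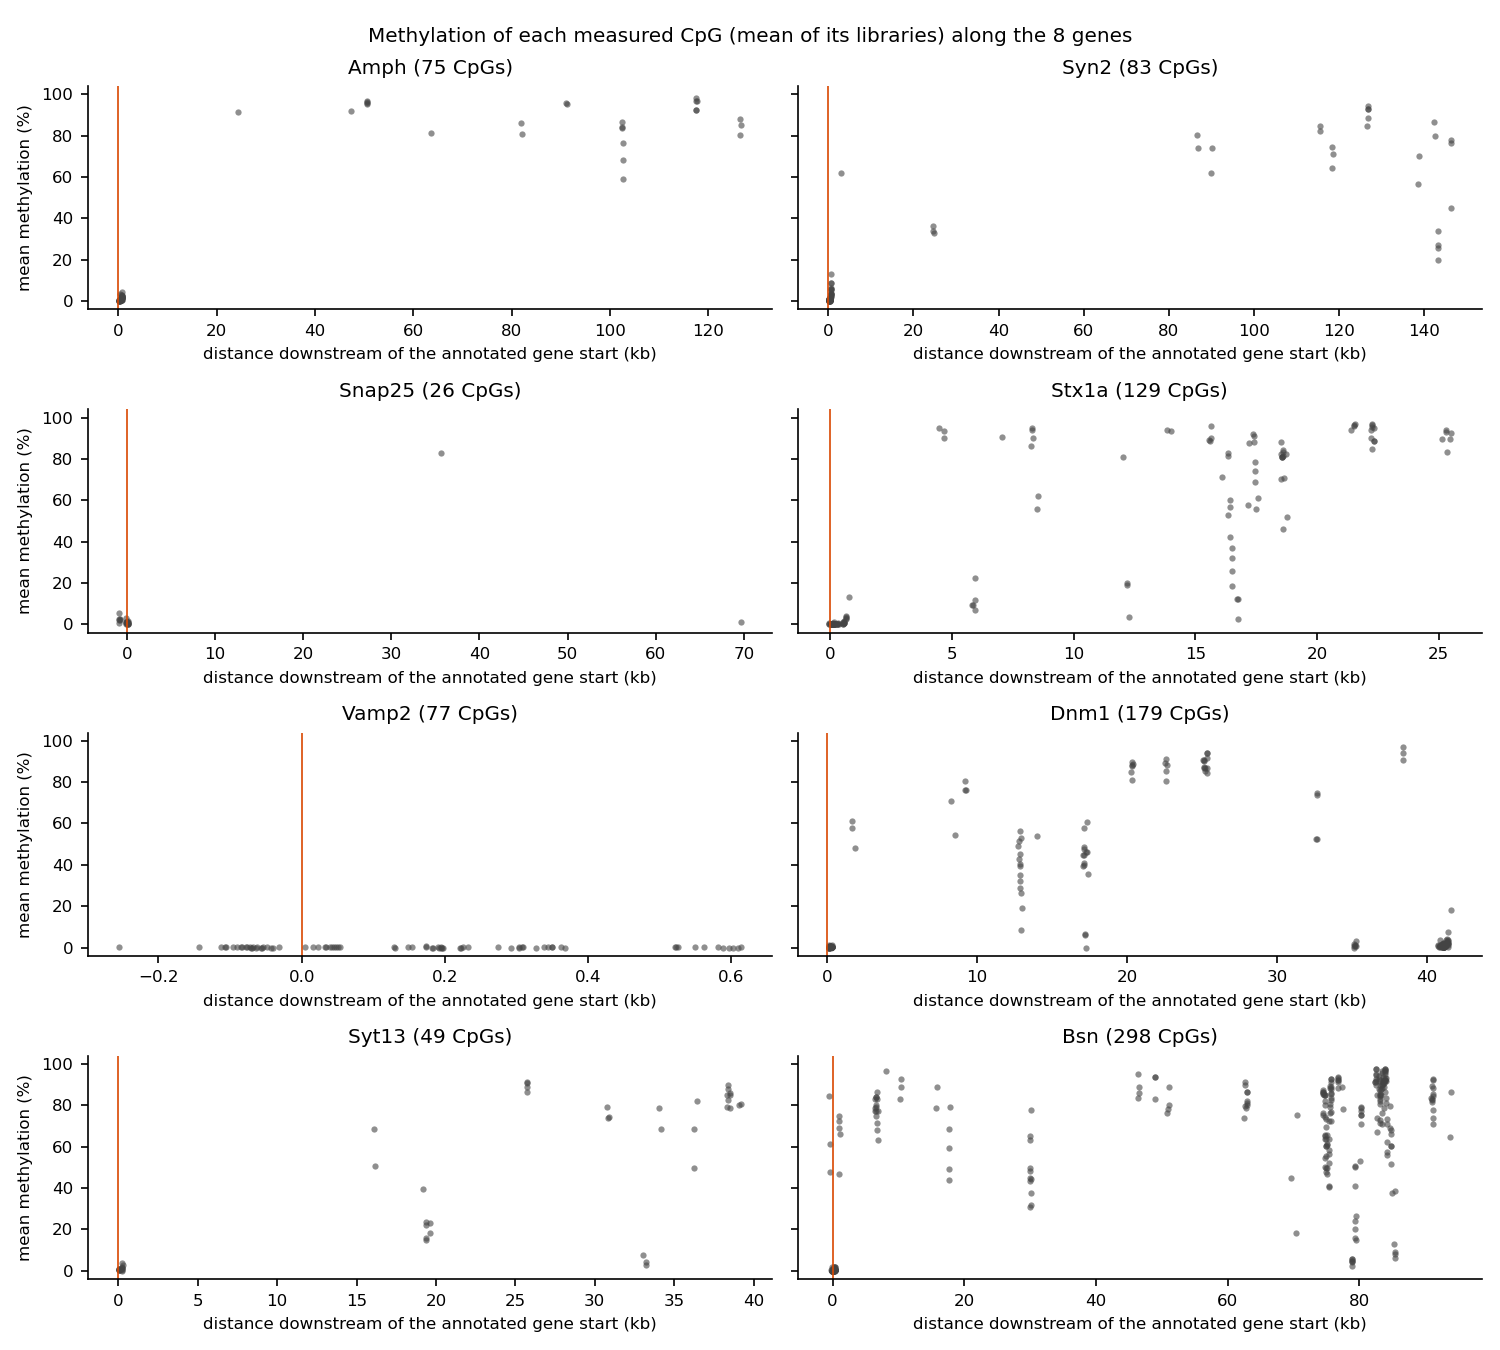
Each point is 1 measured CpG of a member, with its distance from the annotated gene start (kb, positive into the gene, start as the vertical line) and its mean methylation over the libraries that list it (%). For Snap25, Vamp2 and Syt13 the lower end of the gene was taken as the start. Points near each start sit mostly close to 0, and those further away are mostly high. Snap25, Stx1a, Dnm1, Syt13 and Bsn also hold points under 10% more than 1 kb from the start.

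Low methylation was not restricted to the starts. Grouping CpGs at most 500 bp apart into stretches showed a run of 64 CpGs in Dnm1, at chr2:32311763-32312601 and 40748 bp from the start, with a mean of 1.52% and a range of 0.707% to 4.59% over the libraries. A second Dnm1 run of 6 CpGs at chr2:32318093-32318252 had a mean of 1.37%. These stand beside Dnm1 stretches of 89.0% (12 CpGs) and 87.0% (5 CpGs), and beside 2 runs of 14 CpGs at intermediate levels of 40.4% and 37.7%. In Stx1a, 5 CpGs 5839 bp from the start averaged 12.1%, and in Syt13, 3 CpGs 33059 bp from the start averaged 4.90%. Bsn holds 14 CpGs at chr9:108110970-108111545, 78874 bp from its start, with a mean of 19.4%, and a run of 62 CpGs, 82428 bp from the start, at 86.7%. The last measured stretch but 1 of Syn2, 4 CpGs 143255 bp from the start, averaged 26.6%. Whether these stretches are exonic or intronic was not analysed here, because the gene table used gives gene limits only.

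Averaged over the CpGs of each region listed at both ages, the members ranged from nearly unmethylated to mostly methylated, in an order that was nearly the same in every library. Vamp2 was lowest at 0.140% (77 CpGs), followed by Snap25 at 6.37% (17), Syn2 at 22.8% (81), Dnm1 at 24.6% (177), Amph at 27.1% (71), Syt13 at 40.8% (41), Stx1a at 41.3% (121) and Bsn at 58.7% (292). The median over all 25723 gene regions was 25.7%. Each neighbouring pair stood in this order in 20 of 20 libraries except Syn2 below Dnm1 (16 of 20) and Syt13 below Stx1a (11 of 20), whose ranges overlap. These means depend on how many of the measured CpGs lie at the start, and they are levels of measured CpGs and not of whole genes. The SD over the 20 libraries was 0.576 points for Amph, 0.627 for Dnm1 and 0.878 for Stx1a, and it was wider for Syn2 (1.5), Bsn (2.04) and Syt13 (2.40).

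**Figure D2:**
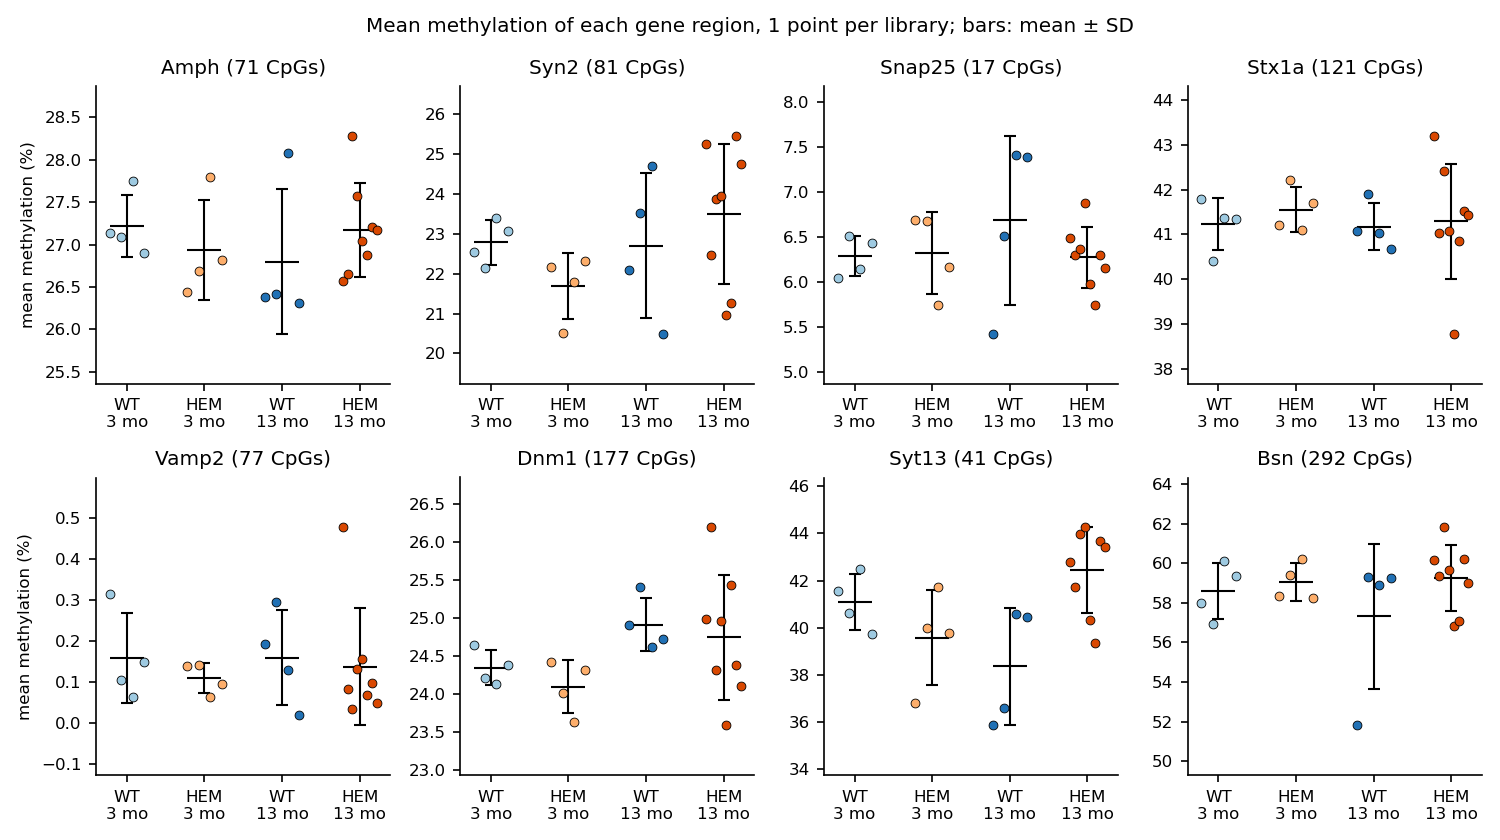
Mean methylation (%) of each gene region in each of the 20 libraries, over CpGs listed at both ages, by group (HEM, α-synuclein; WT, control), with horizontal bars for the group mean and vertical bars for the SD. The groups overlap in most panels, 1 WT library of 13 months lies far below the others in Bsn, and the vertical axes differ between panels.

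The comparison of HEM with WT mice at 13 months asks how α-synuclein overexpression relates to methylation in older mice. In 8 genes and 893 listed CpGs, the test found 1 difference, a CpG inside Amph that was less methylated in HEM mice. Tests used limma on log2 ratios of methylated to unmethylated percent, for CpGs with a mean between 5% and 95%, and a call needed an adjusted p (Benjamini-Hochberg over all CpGs tested) under 0.05 and a difference of at least 10 points, or 5 points for a gene region or 1 kb tile. Of the 444 member CpGs tested, 1 was called, where 0.000881% of all 453891 CpGs tested were called (4 CpGs). No gene region was called among the 7 members tested, nor among all 19451 regions (0%), and 2 members had an unadjusted p under 0.05 by limma, as did 4.05% of all regions. None of the 51 member tiles was called, nor any of 71077 (0%), with 3 member tiles at an unadjusted limma p under 0.05, against 5.52% of all tiles.

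The called CpG lies in Amph at chr13:18972397, 24255 bp from the gene start, and the nearest other listed CpG is 23067 bp away. In HEM mice of 13 months the lowest library was at 80.6%, the median at 87.2% and the highest at 90.3%, while all 4 WT libraries stood at 100%. These groups do not overlap. The difference was -13.4 points (limma adjusted p = 0.00135, lower in 8 of 8 HEM libraries). At 3 months HEM libraries read 83.3%, 100%, 84.2% and 94.3%, WT libraries read 79.6%, 98.4%, 97.3% and 100%, and these groups overlap (-3.36 points, limma adjusted p = 0.985). The change of the genotype difference with age was -10.1 points (limma adjusted p = 0.764), so a difference between the ages was not shown. The call depended on the scale and the fit, and the 4 WT values of 100% have no spread. Its adjusted p was 0.738 on the percent scale, 0.354 with an offset of 5, 0.190 with all 20 libraries in 1 fit and 0.818 with the replicate number as a block, over the libraries that share a number (-12.1 points).

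Syt13 had the largest difference of the 8 gene regions at 13 months, and it did not pass the correction. The 8 HEM libraries had a lowest mean of 43.2%, a median of 47.3% and a highest of 48.2% over 45 CpGs, and the WT libraries stood at 40.5%, 42.2%, 44.0% and 44.4%. The highest WT libraries lie above the lowest HEM library. The difference was +3.91 points (SE 1.10; limma adjusted p = 0.99996). At 3 months the sign was opposite, with HEM at 34.7%, 37.7%, 38.6% and 37.2% and WT at 39.0%, 38.3%, 40.1% and 36.7% (-1.45 points, SE 1.10; limma adjusted p = 0.99992). Each age lists its own 45 CpGs, of which 41 are listed at both, so these levels cannot be compared between the ages. Over the 41 CpGs listed at both ages, the change of the genotype difference with age was +5.6 points (limma adjusted p = 0.903).

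Within Syt13 the gaps between groups were widest in 2 stretches. The tile of smallest p among the members, chr2:92953001-92954000 with 8 CpGs, ran from 86.4% to 93.1% in HEM mice of 13 months (median 89.1%), and stood at 57.9%, 70.4%, 80.5% and 83.3% in WT. All 8 HEM libraries lie above all 4 WT libraries, by 16.3 points on average (limma adjusted p = 0.822). Without WT replicate 1, the lowest of these, the difference was 11.2 points (adjusted p = 0.798). In the same tile at 3 months HEM stood at 68.3%, 84.6%, 88.5% and 85.8%, and WT at 87.6%, 85.0%, 86.4% and 92.2%. The CpG of smallest p in Syt13 at 13 months, chr2:92953449, lies in this tile and stood at 84.0% ± 4.85 (SD, n = 8) in HEM, against 63.0% ± 11.05 (SD, n = 4) for WT (limma adjusted p = 0.618). In the stretch 19183 bp from the start, the CpG at chr2:92934485 ranged from 9.09% to 32.7% in HEM (median 22.4%) and stood at 12.5%, 0%, 9.52% and 11.1% in WT. This CpG had the smallest p of the Syt13 CpGs at 3 months. It was then lower in HEM, at 12.0%, 5.66%, 7.41% and 8.51%, than in WT, at 22.7%, 13.6%, 20.7% and 20.5%, and those groups do not overlap. For this CpG limma gave an adjusted p of 0.80 at the older age, and of 0.985 at the younger. The mean of the 12 CpGs at the Syt13 start was at most 1.88% in any of the 20 libraries.

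**Figure D3:**
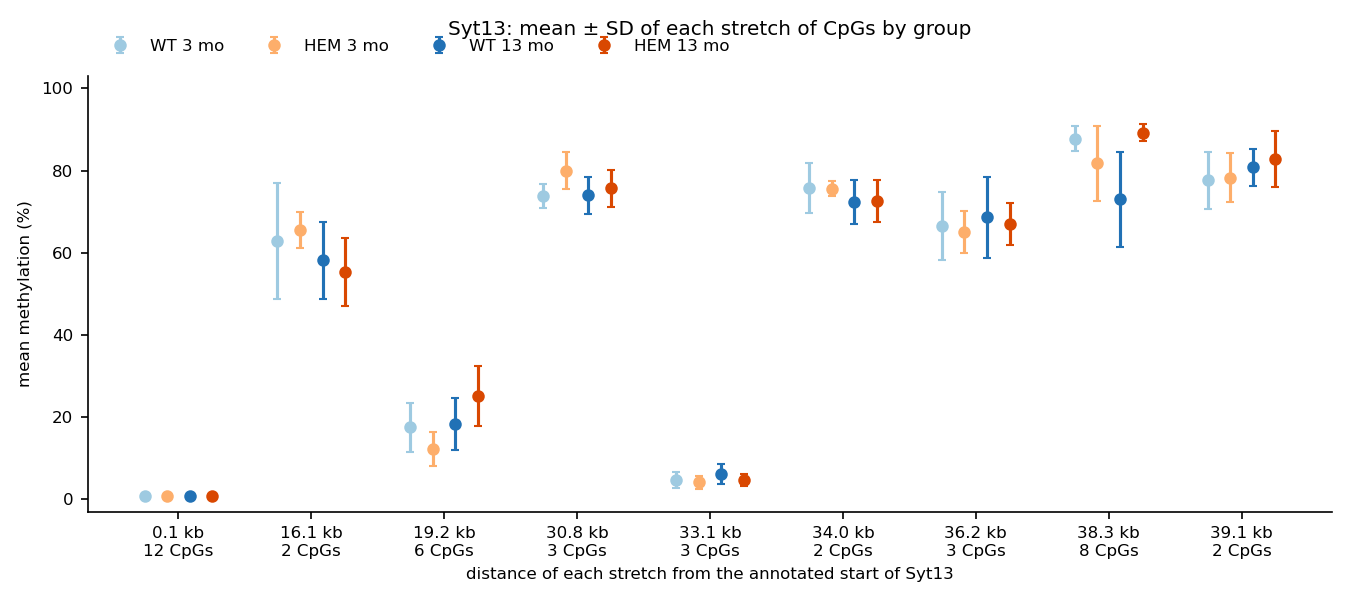
Mean ± SD over libraries of each stretch of Syt13 CpGs listed at both ages, by group, ordered by distance from the annotated start (kb on the axis, methylation in %). The lower end of the gene was taken as the start. The stretch of 8 CpGs at 38.3 kb had means of 89.3% in HEM and 73.0% in WT at 13 months. At 3 months its means were 81.8% in HEM and 87.8% in WT. This stretch and that of 6 CpGs at 19.2 kb show the widest gaps between groups, and the start is near 0 in all 4 groups.

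In 3 of the 4 groups the library with the highest mean methylation over the microglial marker regions had the lowest Syt13 mean. A high marker level here is high methylation of these regions and does not mean more microglia. The 3 libraries with the highest microglial marker means, HEM replicate 1 of 3 months (61.3%), WT replicate 1 of 13 months (60.2%) and HEM replicate 10 of 13 months (59.3%), had Syt13 means of 36.8%, 35.9% and 39.4% over the CpGs of both ages. In the group of WT mice of 3 months, replicate 1 had the highest marker level (58.9%) and a Syt13 mean of 41.6%, with the other 3 libraries at 39.7% to 42.5%. The list of leukocyte and border macrophage markers (6 of 7 genes with a region) was also highest in these first 3 libraries, at 61.5%, 60.6% and 59.8%. On that list the highest WT library of 3 months was replicate 3 (57.5%), with a Syt13 mean of 40.6%. The pattern is thus not particular to the microglial list, and its cause was not tested. These libraries were picked after their values were seen. With the marker level as a covariate, the adjusted limma p of the Syt13 tile was 0.854, against 0.822 without it, so the tile was called in neither fit. The count of called member CpGs at 13 months was still 1, the Amph CpG at which all WT values are 100%. These fits do not test the pattern described here.

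The other members differed less between genotypes at 13 months. For the SNARE genes, Snap25 was at 5.43% ± 0.406 in HEM (SD, n = 8), against 6.17% ± 0.719 for WT (SD, n = 4), a difference of -0.738 points (limma adjusted p = 0.99996). Stx1a differed by +0.0513 points (SE 0.570), and Vamp2, at 0.137% in HEM and 0.159% in WT, lies under the 5% limit for a test. For the endocytic genes the differences were +0.726 points in Amph (SE 0.763) and -0.163 in Dnm1 (SE 0.340). Syn2 differed by +1.04 points (SE 1.08), and Bsn by +1.95 (SE 1.91). Every adjusted p of these tested regions was 0.99996. In Bsn the 4 WT libraries stood at 52.2%, 59.6%, 59.1% and 59.6%, so that replicate 1 lies apart from the other 3, and without it the Bsn difference was +0.135 points.

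**Figure D4:**
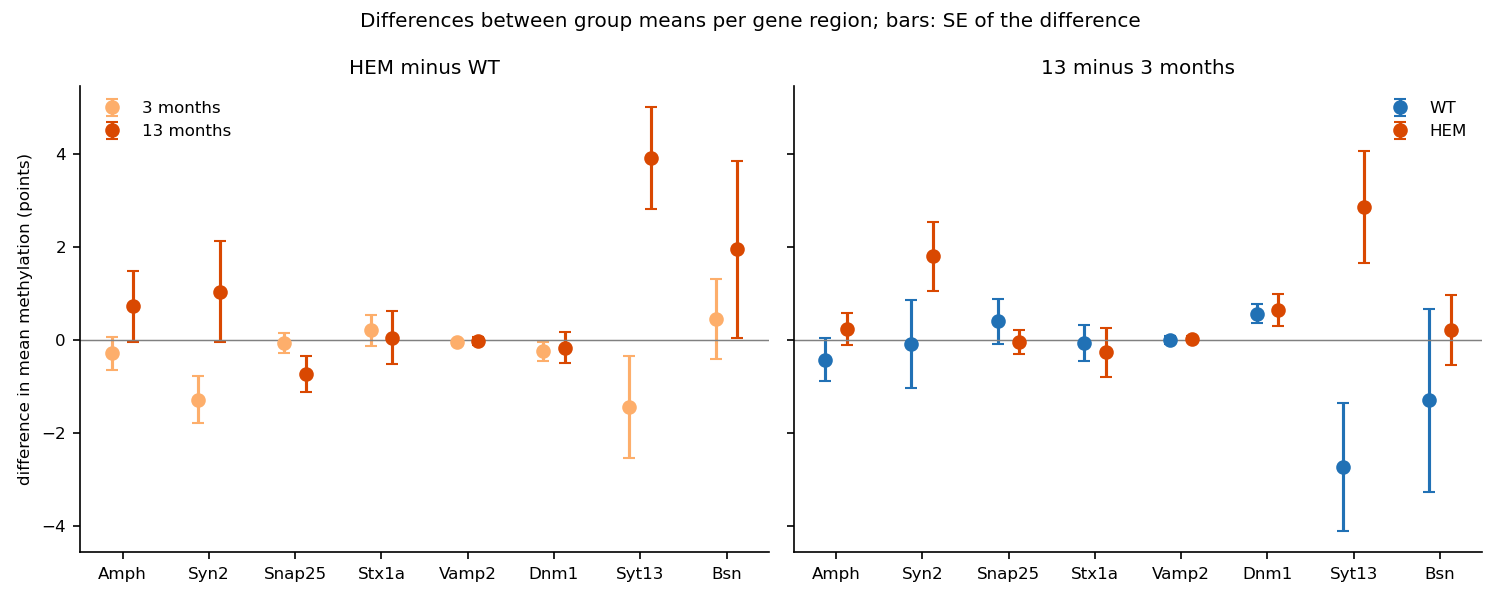
Difference between group means (percentage points) for each gene region, with the SE of the difference, for HEM minus WT at both ages (left) and for 13 minus 3 months in both genotypes (right). Syt13 lies highest for HEM minus WT at 13 months (+3.91) and below 0 at 3 months (-1.45), and most other points lie within 2 points of 0. The left panel uses the CpGs listed at each age, and the right panel those listed at both.

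More member CpGs were higher than lower in HEM at 13 months, and the excess was smaller without 1 of the WT libraries. Of the 444 member CpGs tested, 276 (62.2%) were higher and 168 lower, with a median difference of +1.62 points, against 49.1% higher and a median of -0.100 points over all CpGs tested. Unadjusted limma p-values under 0.05 fell on 39 member CpGs (8.78%), against 5.82% of all CpGs. Without WT replicate 1 of 13 months, 231 of 441 (52.4%) were higher, with a median of +0.302 points, against 48.4% of all CpGs. Without any 1 of the other 11 libraries the share higher ran from 58.7% to 66.4%. For Bsn the share higher went from 62.1% to 50.4% without that library, for Dnm1 from 60.6% to 48.5%, and for Amph from 76.5% to 47.1%. For Syt13 it was 71.0% with the library and 74.2% without it. CpGs of 1 gene share libraries and often reads, so these counts are a description and not a test.

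Other single CpGs with the smallest p of their gene at 13 months did not pass the correction. The Syn2 CpG at chr6:115277339, 142437 bp from the start, ranged from 78.1% to 100% in HEM (median 95.1%) and stood at 74.3%, 63.6%, 71.4% and 72.0% in WT. The groups do not overlap, and the difference was +22.6 points (limma adjusted p = 0.707). At 3 months the same CpG was at 86.4% ± 10.6 in HEM, against 90.03% ± 17.97 for WT (SD, n = 4 each). The Bsn CpG at chr9:108189466, 953 bp into the gene, was at 79.5% ± 7.53 in HEM, against 58.2% ± 14.5 for WT (limma adjusted p = 0.771). In the unmethylated Dnm1 stretch far from the start, the CpG at chr2:32311965 was at 4.81% ± 2.50 in HEM, against 11.8% ± 4.41 for WT (limma adjusted p = 0.820). The Stx1a CpG at chr5:135039839 was at 78.3% ± 8.05 in HEM, against 88.3% ± 6.42 for WT (limma adjusted p = 0.842).

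**Figure D5:**
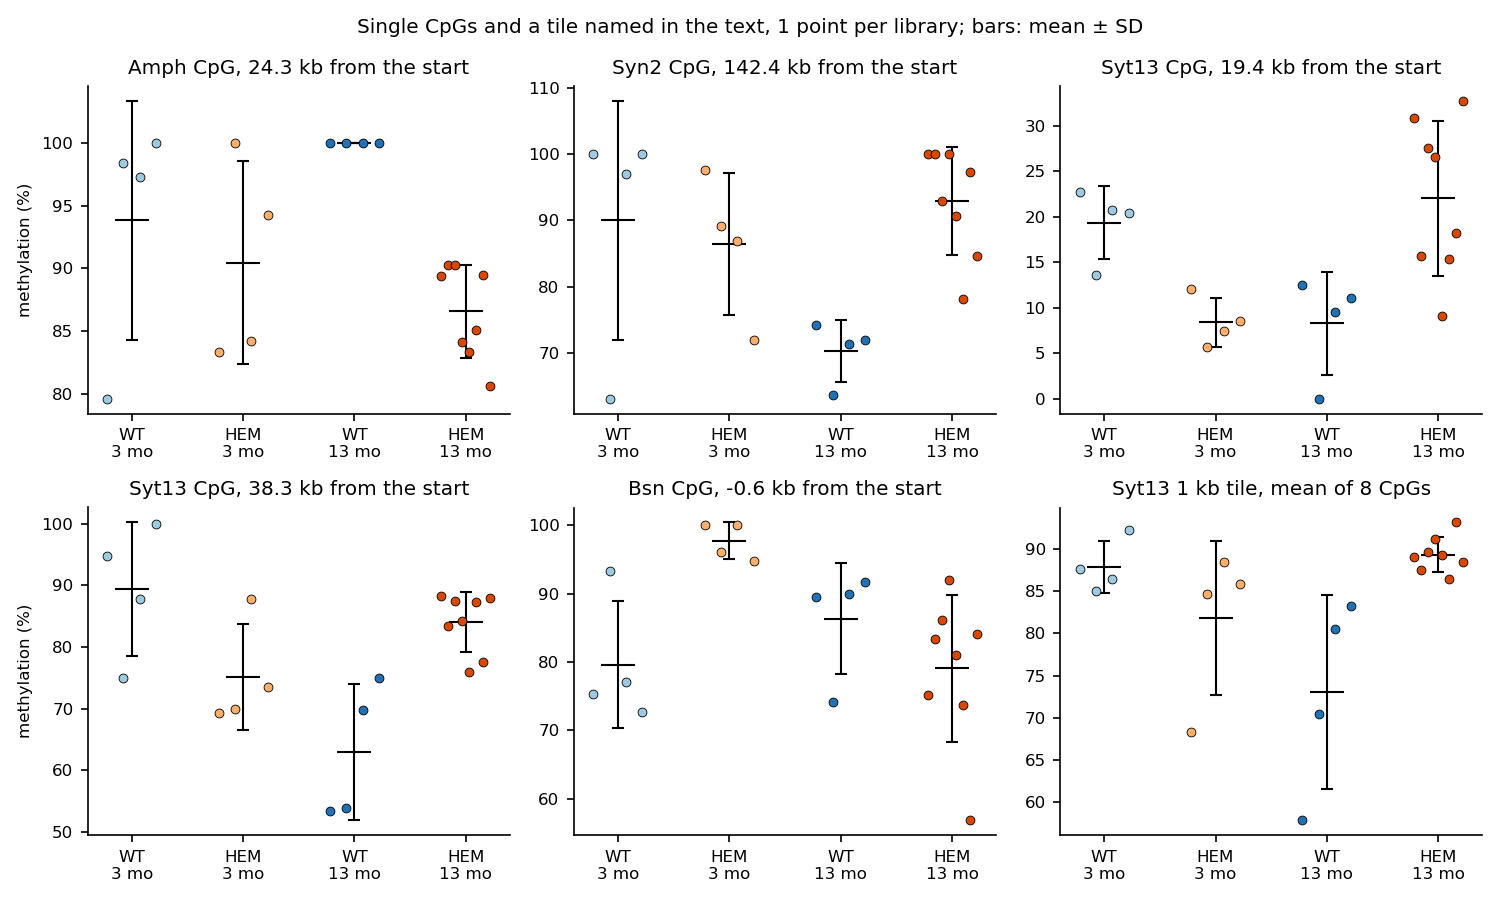
Methylation (%) in each library at 5 single CpGs and 1 tile named in the text, by group, with horizontal bars for the mean and vertical bars for the SD, which can run past 100%. At the Amph CpG all 4 WT libraries of 13 months are at 100% and all HEM libraries of that age are at or below 90.3%, while the groups of 3 months overlap.

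At 3 months, the younger age at which the same genotypes were compared, no member differed past the threshold. None of 434 member CpGs was called by limma, nor any of the 492283 tested (0%), and 14 member CpGs had an unadjusted p under 0.05 (3.23%, against 4.53% of all). No region of the 6 members tested was called, nor any of 20189 (0%), and 0 members reached an unadjusted p under 0.05 by limma, against 4.03% of all regions. None of 46 member tiles was called, nor any of 78139 (0%), and 2 member tiles had an unadjusted limma p under 0.05, against 4.5% of all tiles. Of the member CpGs, 195 were higher and 239 lower in HEM, with a median of -0.562 points against -0.0557 over all. Syn2 was at 22.2%, 20.9%, 22.3% and 22.7% in HEM, while WT libraries read 22.8%, 22.7%, 23.999% and 23.6%. Its groups just fail to overlap over the 82 CpGs of that age, and the difference was -1.28 points (SE 0.506; limma adjusted p = 0.99992). Over the 81 CpGs listed at both ages they overlap, with the highest HEM library at 22.3% and the lowest WT library at 22.1%. The tile of smallest p, in Dnm1 at chr2:32314001-32315000 with 3 CpGs, was at 92.4% ± 3.76 in HEM, against 96.5% ± 1.47 for WT (SD, n = 4 each; limma adjusted p = 0.994).

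The widest single difference with its gene's smallest p at 3 months was in Bsn, at chr9:108190995, -576 bp from the annotated start and outside the unmethylated window shown above. HEM libraries stood at 100%, 96.1%, 100% and 94.7%, and WT libraries at 75.3%, 93.3%, 77.1% and 72.7%. The groups do not overlap, and the difference was +18.1 points (limma adjusted p = 0.985). Because this CpG was chosen for its small p, the lack of overlap is a description and not a test. At 13 months the same CpG ranged from 56.9% to 92.0% in HEM (median 82.1%) and stood at 89.5%, 74.2%, 90% and 91.7% in WT. Among the other members at 3 months, the Syn2 CpG at chr6:115221666 was at 76.1% ± 2.47 in HEM, against 89.2% ± 14.5 for WT. The Stx1a CpG at chr5:135027938 was at 90.9% ± 2.47 in HEM, against 97.4% ± 2.29 for WT. The Amph CpG at chr13:19074895 was at 89.1% ± 10.5 in HEM, against 84.4% ± 2.02 for WT, and none of these 3 was called.

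Between 3 and 13 months no member CpG was called in either genotype. In WT mice, 0 of 428 member CpGs were called by limma, against 81 of all CpGs tested (0.0183%), and 16 had an unadjusted p under 0.05, against 4.79% of all CpGs. No member region was called, against 1 of 19292 regions (0.00518%), and 0 had an unadjusted limma p under 0.05, against 4.98% of all regions. In HEM mice, 0 of 432 member CpGs were called, against 136 of all (0.0305%), and 48 (11.1%) had an unadjusted limma p under 0.05, against 10.4% of all CpGs. No member region was called in HEM, nor any of 19319 (0%), and 1 member, Syt13, had an unadjusted limma p under 0.05, against 12.9% of all regions. Over the 41 CpGs listed at both ages, Syt13 in HEM mice was at 42.4% ± 1.81 (SD, n = 8) at 13 months. It was at 39.6% ± 2.03 (SD, n = 4) at 3 months, a rise in means of 2.86 points (limma adjusted p = 0.349). In WT mice it was at 38.4% ± 2.49 at 13 months and 41.1% ± 1.18 at 3 months (SD, n = 4 each), a difference of -2.73 points (limma adjusted p = 0.951). The Bsn CpG at chr9:108190995 had the smallest adjusted p of the member CpGs for age in HEM, with a difference of -18.7 points (limma adjusted p = 0.0888). It passed the threshold with all 20 libraries in 1 fit (adjusted p = 0.0343) and without HEM replicate 7 of 3 months (adjusted p = 0.0444). These comparisons share their groups with the genotype comparisons.

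The genotype difference did not change with age past the threshold in any member. Of the member CpGs, 0 of 431 were called by limma for the interaction of genotype and age, against 1 of all CpGs (0.000224%), and 34 had an unadjusted p under 0.05, against 6.28% of all CpGs. No member region was called of 7 tested, nor any of 19312 (0%), and Syt13 was the 1 member with an unadjusted limma p under 0.05, against 5.18% of all regions. The interactions of the other regions ran from -0.443 points in Snap25 to +1.89 points in Syn2.

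The CpG with the widest range over the 20 libraries in each gene shows how far a single position can vary within a group. In Bsn, the CpG at chr9:108183521 ran from 20.6% to 88.9% within the 4 WT libraries of 13 months and from 19.1% to 100% within the 4 HEM libraries of 3 months. In Syt13, chr2:92953458 ran from 30.8% to 100% in WT mice of 13 months and from 87.0% to 100% in HEM mice of that age. In Stx1a, chr5:135032024 ran from 30.2% to 96.2% within HEM mice of 13 months, and in Dnm1, chr2:32345065 ran from 37.3% to 91.4%. In Syn2, chr6:115221713 ran from 36.4% to 89.2% in that group, and in Amph, chr13:19050903 ran from 41.4% to 85.2% in HEM mice of 3 months. In Vamp2 the widest CpG, chr11:69088701, reached 6.82% in 1 HEM library of 13 months and was 0% in all 8 libraries of 3 months.

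Among 77 other genes of the vesicle cycle (vesicle proteins, calcium sensors, fusion machinery, active zone and endocytosis), none was called in any comparison by limma. At 13 months 62 had a tested region, 40 with a higher and 22 with a lower mean in HEM, with a median difference of +0.176 points against -0.0187 over all gene regions. At 3 months 63 were tested, 20 with a higher and 43 with a lower mean, with a median of -0.179 points against -0.0500. The numbers with an unadjusted limma p under 0.05 were 0 at both ages. The lists were chosen with earlier results of these data known, and the share of all gene regions higher in HEM was not counted. The counts of higher and lower means are therefore a description only. For age in HEM mice, 12 of 61 had an unadjusted p under 0.05, where 12.9% of all gene regions did. These included Sv2b and Syp, membrane proteins of the vesicle, at +3.37 points (limma adjusted p = 0.263) and +3.57 points (limma adjusted p = 0.304).

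The gene regions whose level lay closest to each member over the 20 libraries were found by the mean absolute difference. They were Denn2b for Syn2 (0.738 points), Oxa1l for Snap25 (0.327), Cfap43 for Stx1a (0.512), Gm20753 for Vamp2 (0.0441), Rhbdf1 for Dnm1 (0.470), D630044L22Rik for Syt13 (1.18) and Dok5 for Bsn (0.981). The region closest to Amph was Gm41664 (0.504 points).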

How the data were processed

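RRBS libraries of microglia-enriched brain homogenate from HEM and WT mice of 3 and 13 months were used, 20 in all, grouped by the genotype and age in the labels. The authors deposited, per library, the percent methylation of each CpG, with the 2 strands listed apart and no read counts. The submitters' processing notes name Bowtie2, methylKit and mm10, and filters and other settings are not given in the sources used here. The tables of the whole series were not used: their 13 and 8 value columns carry no sample names. Gene limits and promoter windows came from RefSeq tables of GRCm38.p6.

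CpGs, gene regions (gene and 1 kb either side, at least 3 CpGs) and 1 kb tiles were tested with limma 3.58.1 in R 4.3.3 (moderated, 2-sided) on log2((percent + 1)/(100 - percent + 1)), for features with a mean of 5% to 95%, within the groups compared. Benjamini-Hochberg adjustment ran over all features tested. Offsets, scales, filters, region limits, strands, a microglial covariate, a replicate block and single libraries left out were tried as alternatives. The script was run on simulated data with known shifts put in. The shares recovered are not given here, so how often a difference of 10 points would be called is not stated.

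The 8 members and the gene lists were chosen with earlier results of these data known. Named CpGs are those called, those of smallest p per gene in each genotype comparison and the widest-ranging per gene. Groups that do not overlap at such CpGs or tiles are described and not tested. How many of all features have such groups was not counted. The Bsn age result falls under its 3-month choice. The other vesicle genes named with values, Sv2b and Syp, were chosen after their values were seen.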

Additional observations from a re-analysis of the deposited data

Results flagged for a closer look

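In 14 of 120 groups of 4 to 8 libraries, over the gene means, tiles and CpGs named, 1 library lay far from the others of its group by Dixon's criterion. Chance alone would mark about 1 in 20 groups if they had not been chosen by their values. The CpGs and tiles were named for a small p or a wide range in these same libraries, which can favour outlying values. Some percentages also lie at the limits of the scale, and groups at the same locus share libraries. The count of 14 therefore cannot be compared with the rate of 1 in 20, and it is a description only. Among the gene means, the Bsn region of WT replicate 1 at 13 months was at 52.2%, with the other 3 libraries at 59.1% to 59.6%, and Vamp2 in HEM replicate 1 of 13 months was at 0.477%, with the others at 0.0347% to 0.155%. In the Dnm1 tile, WT replicate 7 of 13 months stood at 87.2% and WT replicate 3 of 3 months at 94.3%, both the lowest of their groups.

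At single CpGs the lowest library stood apart in 7 groups. The Amph CpG at chr13:18972397 was at 79.6% in WT replicate 1 of 3 months, with the others at 97.3% to 100%. The Syn2 CpG at chr6:115277339 was at 63.2% in WT replicate 3 of 3 months, and the Syn2 CpG at chr6:115221713 at 36.4% in HEM replicate 6 of 13 months. The Snap25 CpG at chr2:136749081 was at 62.0% in HEM replicate 11 of 13 months, and the Stx1a CpG at chr5:135039839 at 61.1% in HEM replicate 6 of that age. The Dnm1 CpG at chr2:32345065 was at 37.3% in HEM replicate 13 of 13 months, and the Bsn CpG at chr9:108190995 at 74.2% in WT replicate 2 of 13 months. The highest library stood apart in 3 groups. They were the Syn2 CpG at chr6:115221713 at 93.8% in WT replicate 2 of 13 months, the Vamp2 CpG at chr11:69088701 at 1.92% in WT replicate 1 of 13 months, and the Dnm1 CpG at chr2:32311965 at 20.3% in HEM replicate 1 of 3 months.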

How the results depend on the processing

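The call of 1 member CpG (Amph) at 13 months was lost (0 member CpGs called) on the percent scale and with an offset of 5. It was also lost with all 20 libraries in 1 fit and with the replicate block. It held at 1 in the other 19 alternatives, including each of the 12 fits without 1 library (count 1 in each). Not all of these could change it. Other region limits and no minimum difference left the fit of this CpG as it was (limma adjusted p = 0.00135). Each fit without 1 WT library still held only WT values of 100%, with no spread. The difference at the Amph CpG ran from -14.0 to -12.1 points over the alternatives. The count of member CpGs called for age in HEM mice went from 0 to 1 (Bsn) with all 20 libraries in 1 fit. Over the fits that each left out 1 library it ran from 0 to 1, and it was 1 only without HEM replicate 7 of 3 months. All other counts of called CpGs, gene regions and tiles stayed at 0 in every alternative run, so that 251 of 257 recomputed counts equalled the reported one. The Snap25 CpG at chr2:136749081, -4.19 points at 13 months and never called, was at +3.43 with the replicate block and ran from -10.4 without WT replicate 1 to +0.0381 without WT replicate 7. No other named CpG or tile changed sign. Of 464 recomputed per-gene differences, 19 moved by more than 1 SD, 16 of them with the median over CpGs in place of the mean.

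Samples share replicate numbers in the labels. The correlations of same-numbered libraries' deviations were 0.103, 0.224 and 0.0480 at 13 months, 0.0505 and -0.111 at 3 months, and 0.0274, -0.152 and -0.0155 for age in HEM. The highest correlations of the same first-group libraries with another library of the second group were 0.0109, -0.0359 and 0.0115 at 13 months. They were 0.0826 and 0.0952 at 3 months, and -0.00119, 0.182 and 0.0178 for age in HEM. No pair was the best match of both its libraries, but at 13 months each correlation exceeded these others. Whether the numbers pair the samples was therefore not settled. The replicate block used only libraries that share a number. No paired analysis was possible for age in WT mice and for the interaction because the groups share only 1 number, which is fewer than the 2 a block needs.

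Without read counts the precision of a single value is unknown, and no interval is given for it. Most groups hold 4 libraries, and no region or tile of the members passed the correction at either age.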
